A study of Mus musculus with 16 samples.

Results

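The genes that copy the genome in S phase were followed in mouse macrophages treated with interferon-gamma. They were 51 genes of DNA replication and S phase out of 19938 genes measured on the arrays, chosen by name: every feature annotated with 1 of the 51 symbols was taken, and all 51 were measured. As these 51 were chosen with earlier results of these data known, their shares set against all genes are not independent of the data. By role they were 15 licensing and helicase genes, 14 genes of the clamp, clamp loader, polymerases and fork, 4 of nucleotide supply, 6 cyclin E and E2F genes, 6 that copy chromatin and DNA methylation, and 6 of repair and checkpoint. The cells were bone-marrow-derived macrophages grown in medium conditioned by L cells, a fibroblast line that secretes macrophage growth factor. All groups carried an H3.3-HA knock-in, in which the replacement histone H3.3 bears an HA epitope tag, so no group had untagged cells. Cells were naive or pretreated (the array titles carry the tag PREIFN), and RNA was taken at 0, 3 and 6 h of interferon-gamma. Naive and pretreated cells had 4 arrays each at 0 h, and 2 each at 3 h and at 6 h. The labels do not state the dose and length of the pretreatment, the mice behind each array or whether replicates were separate cultures, so p-values measure the spread between these arrays, which may be technical. Macrophages kept without interferon for 3 or 6 h were not among the groups. Each change is therefore a difference from 0 h, and the part of time in culture cannot be told apart from that of interferon.

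A cell copies its DNA once per division. In G1 the origin recognition complex, Cdc6 and Cdt1 load the ring of Mcm proteins onto origins, and at the start of S phase Cdc45 and GINS turn that ring into the moving helicase. Polymerases with primase, the sliding clamp PCNA and its loader then copy both strands, while ribonucleotide reductase and thymidylate synthase supply nucleotides, and CAF-1 and Asf1 rebuild chromatin behind the fork. Most of these genes are driven by E2F factors, held in check by the retinoblastoma family in G1 and switched on together with cyclin E. Macrophages divide in growth factor, and interferon-gamma, besides activating them, is known to stop their division.

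The promoters of the genes show the E2F element that joins many of them, and 4 are printed here as examples. RefSeq promoter windows (mouse build GRCm38.p6, 250 bases before to 50 after a transcript start, read on the strand of the gene) were found for 44 of the 51 genes, and those of Prim2, Gins2, Mcm4, Gins1, Pole, Ccne2 and Exo1 were not matched. Mcm5 and Mcm6 are shown as helicase genes in which E2F letters on opposite strands overlap. Gins3 is shown because it holds E2F letters and, nearby, the letters of the cell cycle homology element known from genes of G2 and mitosis. Asf1b is shown as a gene with no E2F letters that fell steeply at 6 h. Capitals mark the E2F letters (TTTCCCGC, TTTGGCGC or TTTCGCGC on either strand) in Mcm5 and Mcm6, the E2F letters and the homology letters TTTGAA in Gins3, and in Asf1b the CCAAT box, which stands there on the other strand, and the same homology letters. Each stretch lies upstream of the annotated gene, on chr8:75109339-75109467 (+ strand), chr1:128359706-128359835 (- strand), chr8:95633429-95633558 (+ strand) and chr8:83955494-83955693 (+ strand), in that order.
Mcm5: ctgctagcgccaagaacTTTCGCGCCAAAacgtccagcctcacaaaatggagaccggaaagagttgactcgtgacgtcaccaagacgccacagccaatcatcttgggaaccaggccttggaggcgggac
Mcm6: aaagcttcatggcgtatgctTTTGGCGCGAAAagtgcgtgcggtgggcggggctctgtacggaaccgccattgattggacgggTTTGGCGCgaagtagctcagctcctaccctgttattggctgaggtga
Gins3: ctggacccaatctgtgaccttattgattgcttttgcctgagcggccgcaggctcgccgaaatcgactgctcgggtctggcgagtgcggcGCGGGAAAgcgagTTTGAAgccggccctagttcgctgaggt
Asf1b: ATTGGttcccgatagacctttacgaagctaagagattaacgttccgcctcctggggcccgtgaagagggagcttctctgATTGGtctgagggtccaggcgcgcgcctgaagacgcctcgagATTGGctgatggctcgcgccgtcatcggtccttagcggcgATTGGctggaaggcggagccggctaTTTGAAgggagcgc

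E2F letters stood in the windows of 18 of the 44 replication genes (40.9%), against 2.12% of all 27025 genes with a window and 2.99% of the genes measured here. The 18 were Brca2, Cdc6, Cdt1, Clspn, Dnmt1, E2f2, E2f7, Gins3, Lig1, Mcm3, Mcm5, Mcm6, Mcm7, Orc1, Pola1, Pold1, Rfc3 and Uhrf1. Among 20 mitosis genes with a window, listed here for comparison, 1 held E2F letters (5.0%). The cell cycle homology letters (TTTGAA, or the variant with TTCGAA, on either strand) were distributed the other way, in 11 of 44 replication genes (25.0%), 16 of 20 mitosis genes (80.0%) and 21.7% of all genes. CCAAT on either strand, the letters bound by NF-Y, stood in 63.6% of replication genes, 85.0% of mitosis genes and 41.1% of all genes. TTCNNNGAA, the letters of the interferon-gamma activated site, stood in 3 replication genes, Cdc45, Lig1 and Mcm5 (6.82%), against 9.55% of all genes. Several motifs can stand in the same window, as in Mcm5 and Gins3, and a match of letters is a description of the window.

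The arrays came in 2 sets by the array numbers in their titles, set 1 with 0 h (replicates 1 and 2) and 6 h, set 2 with 0 h (replicates 3 and 4) and 3 h. Values in this account are log2 intensities, and all changes were taken within a set. The sets differed at 0 h. In naive cells all 51 replication genes were higher in set 2 than in set 1 (median 0.97 on the log2 scale, where the median of all genes was -0.35), and in pretreated cells all 51 again (median 0.79). Time and set cannot be told apart between 3 h and 6 h. Replication genes had a median SD within a group and set of 0.22, against 0.11 for all genes. In set 2, 50 of 51 were higher in replicate 4 than in replicate 3 of naive 0 h cells, by a median of 0.50, and 49 of 51 were higher in replicate 2 than in replicate 1 of naive 3 h cells, by 0.38. Of 12 macrophage markers 11 were measured, with array medians between 12.29 and 12.89 in every group, while the markers of 5 other cell types had array medians of 4.89 to 7.06. Single markers on those lists read higher, as did Csf3r (mean 10.1 over all arrays) and Cd34 (9.08) of the granulocyte and myeloid progenitor list. Of 9 measured interferon-response genes, 8 rose in naive cells at 3 h and 9 at 6 h.

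**Figure D1:**
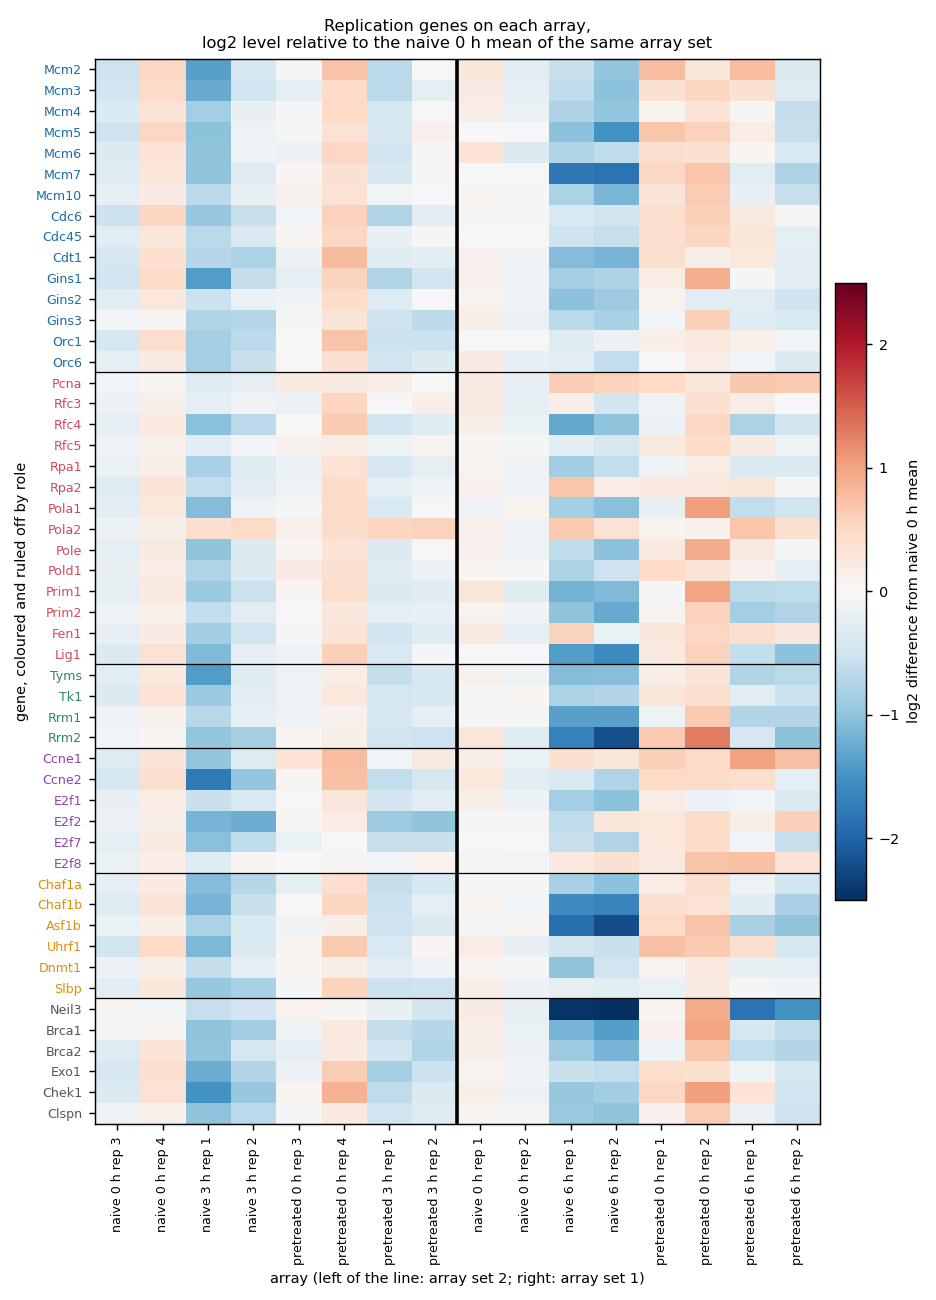
The colour gives the log2 level of each of the 51 genes (rows, coloured and ruled off by role) on each of the 16 arrays (columns), relative to the mean of the naive 0 h arrays of the same array set. Naive 3 h and 6 h columns are mostly blue, Neil3, Asf1b, Rrm2 and Mcm7 are darkest in naive cells at 6 h, and Pola2 and, at 6 h, Pcna are red.

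In naive macrophages 3 h of interferon-gamma came with lower levels across replication genes, of which 7 of 51 passed the test. They were the S-phase cyclin Ccne2, the activator E2f2, the repressor E2f7, the CAF-1 subunit Chaf1a, the histone mRNA-binding protein Slbp, Brca1 and the checkpoint mediator Clspn. Genes lower than 0 h made up 2.09% of all 19938 genes at the same threshold, an adjusted p of 0.05 (limma with Benjamini-Hochberg adjustment over all genes). The median change of the 51 genes was -0.67, that of all genes 0.00, and 50 of the 51 lay below 0. At 0 h and 3 h the arrays of 36 genes did not overlap with 3 h lower, which was also so for 24.4% of all genes.

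The cyclin E and E2F group held 3 of the 7. Ccne2, which with Cdk2 drives cells into S phase, read 9.10 and 9.93 in naive 0 h cells of set 2 and 7.75 and 8.54 at 3 h. Both 3 h arrays were below both 0 h arrays, and Ccne2 fell by 1.37 ± 0.34 (SE; adjusted p = 0.0342), the largest change of the group. E2f2 read 9.19 and 9.49 at 0 h and 8.17 and 8.09 at 3 h. Its arrays lay close together within each time, and it fell by 1.21 ± 0.24 (adjusted p = 0.00983). E2f7, an atypical E2F that represses, fell by 0.83 ± 0.19 (adjusted p = 0.0233). Ccne1, the paralog of Ccne2, changed by -0.65 ± 0.25 (adjusted p = 0.200), E2f1 by -0.47 ± 0.18 (adjusted p = 0.208) and E2f8, the partner of E2f7, by -0.15 ± 0.19, none past the test.

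Among genes that copy chromatin, Slbp, which binds the stem-loop of histone mRNAs made in S phase, read 9.42 and 9.97 at 0 h and 8.74 and 8.88 at 3 h. The times did not overlap, and Slbp fell by 0.88 ± 0.21 (adjusted p = 0.0289). Chaf1a fell by 0.89 ± 0.23 (adjusted p = 0.0382), with its partner subunit Chaf1b at -0.87 ± 0.26 just short of it (adjusted p = 0.0782). Among repair and checkpoint genes, Clspn, which carries the signal from ATR to Chek1, fell by 0.84 ± 0.19 (adjusted p = 0.0190) and Brca1, of homologous recombination, by 0.94 ± 0.24 (adjusted p = 0.0365). The checkpoint kinase Chek1 read 8.54 and 9.28 at 0 h and 7.41 and 7.97 at 3 h. Those arrays did not overlap either, and its change of -1.22 ± 0.34 did not pass (adjusted p = 0.0611).

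In the main fit none of the 15 licensing and helicase genes, the 14 fork genes or the 4 nucleotide genes passed the limma test at 3 h. An unadjusted p under 0.05 was found for 9, 8 and 4 of them, against 15.3% of all genes. With the replicate block 16 of these 33 genes passed as lower and 1 as higher, where 1925 of all 19938 genes passed in either direction. All 15 licensing genes lay below 0, from Gins1, a GINS subunit, at -1.0 ± 0.35 (adjusted p = 0.153) to Gins2 at -0.36 ± 0.22. The 6 subunits of the Mcm ring lay between -0.89 ± 0.46 (Mcm2) and -0.51 ± 0.30 (Mcm4). Mcm2 read 9.71 and 10.76 at 0 h and 8.87 and 9.82 at 3 h. The times overlapped for Mcm2, since the higher 3 h array lay above the lower 0 h array. Rrm2, the regulated subunit of ribonucleotide reductase, changed by -0.91 ± 0.26 (adjusted p = 0.0664). Pola2, the accessory subunit of polymerase alpha, alone lay above 0, at 0.45 ± 0.16 (adjusted p = 0.167).

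The count at 3 h moved when single arrays were left out. Replicate 4 at 0 h and replicate 2 at 3 h, array numbers 5 and 7, were the higher arrays in 50 and 49 genes. Leaving 1 array out makes the array numbers of the times unequal. The counts therefore cannot tell a deviating array from a shift shared by array numbers. With the replicate block, which keeps all arrays, the count was 31. Leaving out replicate 3 of the 0 h arrays gave 11 genes and leaving out replicate 4 gave 0. Of the 3 h arrays, 0 genes passed when replicate 1 was dropped and 4 when replicate 2 was, and no gene passed under all 4 of these. The direction was steadier, with 49 or 50 of 51 genes below 0 in each case and medians from -0.96 to -0.37, the smallest being -0.37 without replicate 4 at 0 h and -0.38 without replicate 1 at 3 h.

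**Figure D2:**
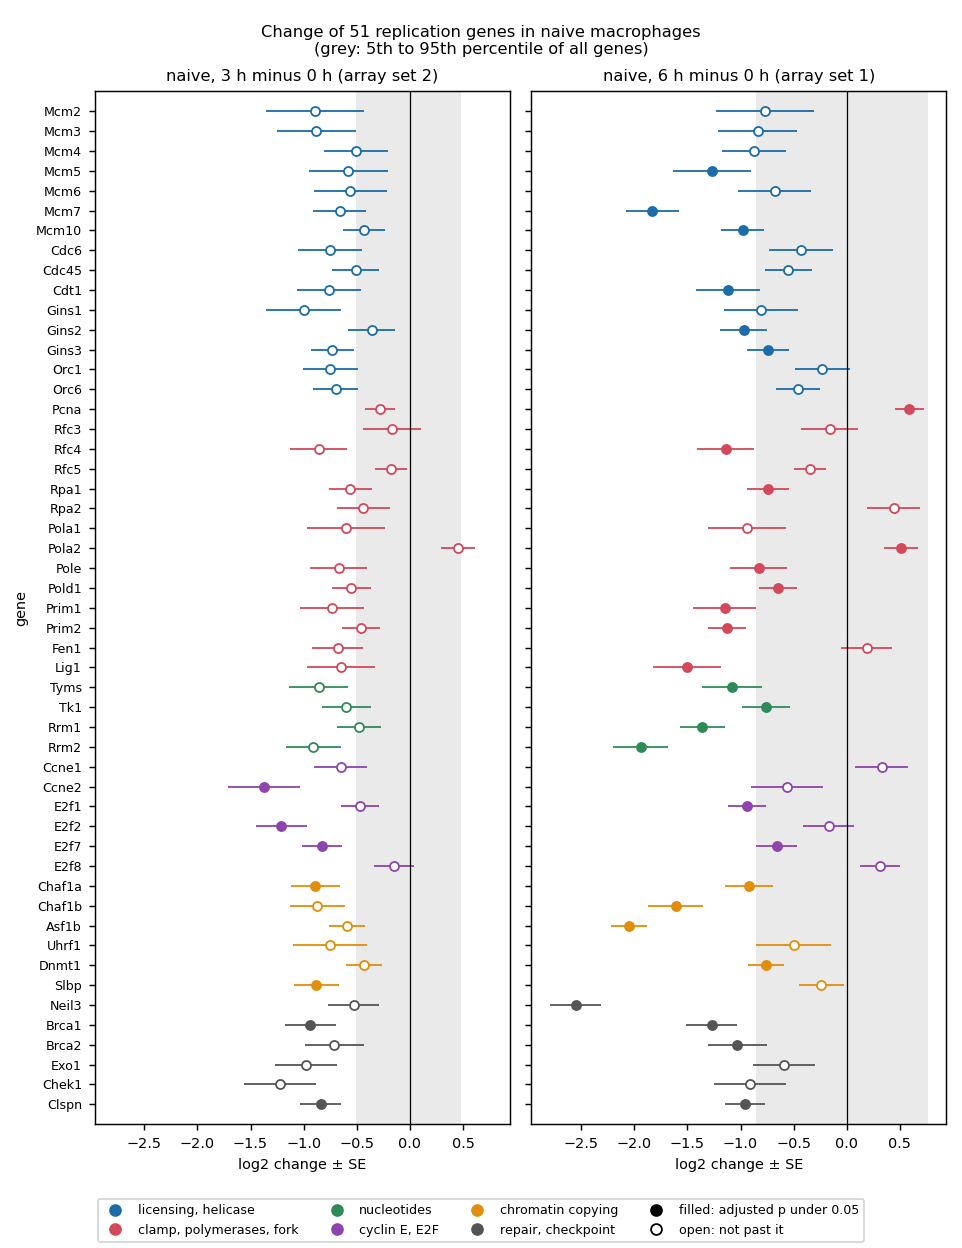
Points give the log2 change ± SE of each of the 51 genes in naive cells at 3 h (left) and 6 h (right), filled where the adjusted p is under 0.05, and the grey band spans the 5th to 95th percentile of all genes. Nearly all genes lie left of 0 at 3 h, Ccne2, Chek1 and E2f2 farthest, and at 6 h the spread is wider, from Neil3 at -2.55 to Pcna at 0.59.

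After 6 h in naive cells, 27 of the 51 replication genes had fallen and 2, Pcna and Pola2, had risen. Over all genes 10.8% fell and 7.48% rose at this time. The largest falls were in the DNA glycosylase Neil3 (5.84-fold), the histone chaperone Asf1b (4.14-fold), the ribonucleotide reductase subunit Rrm2 (3.84-fold) and the helicase subunit Mcm7 (3.55-fold). The median over the 51 genes was -0.81, against -0.01 for all genes, and 45 of 51 lay below 0. As bulk RNA was measured, fewer cells in S phase and less RNA per cell cannot be told apart. Some markers of other cell types also moved: of 12 granulocyte and myeloid progenitor markers Cd34 alone fell (-1.20 ± 0.22), and of 8 dendritic cell markers Clec9a (4.44 ± 0.39) and Xcr1 (1.10 ± 0.28) rose. Of 3 measured erythroid markers Epor fell (-0.60 ± 0.16), and 0 of 9 lymphocyte and 0 of 8 stromal markers passed the limma test, with 0 of either at an unadjusted p under 0.05. The summed level of the progenitor list was 11.27 to 11.62 (log2) in naive cells at 0 h, over both sets, and 11.33 to 11.43 at 6 h, and that of the dendritic list 9.25 to 9.91 and 10.93 to 10.98. As the 6 h arrays were of set 1 alone, these ranges are not changes within a set. Of 11 measured macrophage markers 2 rose and 2 fell past the limma test, with changes from -0.87 to 1.54. The part of all these markers in the falls of replication genes was not tested.

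Of the licensing and helicase genes, 6 of 15 fell: Mcm5, Mcm7, Mcm10, Cdt1, Gins2 and Gins3. Mcm7 read 9.85 and 9.86 in naive 0 h cells of set 1 and 8.06 and 8.0 at 6 h. The pairs of arrays lay far apart, a change of -1.83 ± 0.25 (adjusted p = 0.000255). Mcm5 fell by 1.27 ± 0.37 (adjusted p = 0.0308), while the other ring subunits Mcm2, Mcm3, Mcm4 and Mcm6 lay between -0.87 and -0.68 and did not pass, so the 6 subunits of 1 complex spread over more than 1 log2 unit. Cdt1, the loader of the Mcm ring, read 9.99 and 9.76 at 0 h and 8.80 and 8.71 at 6 h, and fell by 1.12 ± 0.30 (adjusted p = 0.0197). Mcm10, which helps to start the helicase, fell by 0.98 ± 0.20 (adjusted p = 0.00436), and the GINS subunits Gins2 and Gins3 by 0.97 ± 0.22 and 0.74 ± 0.20. The genes that mark origins and bring Cdt1 there did not pass: Cdc6 changed by -0.43 ± 0.30, Orc1 by -0.23 ± 0.26 and Orc6 by -0.46 ± 0.21. Orc1 had means under 6.5, the limit for dim features, in set 1, so small changes there may not be visible.

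Fork genes split. Of 14, 7 fell: the DNA ligase Lig1, both primase subunits Prim1 and Prim2, the clamp loader subunit Rfc4, the catalytic subunits Pole and Pold1, and the single-strand binding protein Rpa1. Lig1, which seals Okazaki fragments, read 9.0 and 8.97 at 0 h and 7.59 and 7.39 at 6 h. It fell by 1.5 ± 0.32 (adjusted p = 0.00501), and Prim2 by 1.13 ± 0.18 (adjusted p = 0.000680). Pcna, the sliding clamp, read 12.38 and 11.96 at 0 h and 12.78 and 12.73 at 6 h. Both 6 h arrays were above both 0 h arrays, and Pcna rose by 0.59 ± 0.14 (adjusted p = 0.00992). Pola2 read 9.43 and 9.16 at 0 h and 9.95 and 9.65 at 6 h and rose by 0.51 ± 0.16 (adjusted p = 0.0445), while Pola1, the catalytic subunit of the same polymerase, changed by -0.94 ± 0.37 (adjusted p = 0.110). Rpa2 at 0.44 ± 0.25 and the flap nuclease Fen1 at 0.19 ± 0.24 also lay above 0 without passing. The rises were not firm: Pcna did not pass when replicate 2 at 0 h (0.38) or replicate 1 at 6 h (0.56) was left out, nor Pola2 when replicate 1 (0.64) or 2 (0.37) at 0 h or replicate 1 at 6 h (0.36) was. The other Pcna feature of the array gave the same changes to 2 decimals in naive and pretreated cells at both times (0.59 here), and the same mean level, 12.69. It is therefore not taken as a second measurement.

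All 4 nucleotide supply genes fell. Rrm2 read 9.92 and 9.33 at 0 h and 7.94 and 7.43 at 6 h, a change of -1.94 ± 0.26 (adjusted p = 0.000208). Its large partner subunit Rrm1 read 11.33 and 11.27 at 0 h and 9.94 and 9.95 at 6 h, a change of -1.36 ± 0.21 (adjusted p = 0.000712). In both subunits the 0 h and 6 h arrays lay well apart. Thymidylate synthase Tyms fell by 1.08 ± 0.28 (adjusted p = 0.0159) and thymidine kinase Tk1 by 0.76 ± 0.23 (adjusted p = 0.0365), with the other Tk1 feature at -1.18.

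In the cyclin E and E2F group only E2f1 and E2f7 passed at 6 h. E2f1, an activator of the whole program, read 9.69 and 9.39 at 0 h and 8.69 and 8.52 at 6 h, a change of -0.94 ± 0.18 (adjusted p = 0.00299). E2f7 fell by 0.66 ± 0.19 (adjusted p = 0.0303). E2f2 read 8.34 and 8.40 at 0 h and 7.73 and 8.67 at 6 h. Its 6 h arrays lay on either side of 0 h, and its change of -0.17 ± 0.24 did not pass. Ccne2 changed by -0.56 ± 0.34, Ccne1 by 0.33 ± 0.25 and E2f8 by 0.31 ± 0.19, none past the test.

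Chromatin copying held 4 falls among 6 genes. Asf1b, which hands new histones H3 and H4 to CAF-1, read 10.66 and 10.72 at 0 h and 8.81 and 8.47 at 6 h. It fell by 2.05 ± 0.17 (adjusted p = 6.47e-06), the smallest p of the 51. Chaf1b fell by 1.61 ± 0.26 (adjusted p = 0.000736), Chaf1a by 0.92 ± 0.23 (adjusted p = 0.0125) and the maintenance methyltransferase Dnmt1 by 0.76 ± 0.17 (adjusted p = 0.00776). Uhrf1, which guides Dnmt1 to newly copied DNA, changed by -0.50 ± 0.35 and Slbp by -0.24 ± 0.21, and neither passed.

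Repair and checkpoint genes also held 4 falls among 6. Neil3, a DNA glycosylase made in dividing cells, read 9.56 and 9.14 at 0 h and 6.90 and 6.70 at 6 h, a change of -2.55 ± 0.24 (adjusted p = 1.37e-05). No other replication gene changed by as much in naive cells. Brca1 fell by 1.27 ± 0.24 (adjusted p = 0.00232), Brca2 by 1.03 ± 0.28 (adjusted p = 0.0237) and Clspn by 0.96 ± 0.19 (adjusted p = 0.00304). Chek1 changed by -0.91 ± 0.34 (adjusted p = 0.0897) and the nuclease Exo1 by -0.59 ± 0.29. Brca2, Chek1 and Clspn had 6 h means under the dim limit, so their falls may be understated.

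At 6 h 43 genes had both arrays below both 0 h arrays and 5 had both above, against 31.3% and 24.9% of all genes. The count that passed the test was 13 with replicate 1 at 0 h left out and 18 with replicate 2 left out, and for the 6 h arrays 13 with replicate 1 and 20 with replicate 2 left out. Passing under all 4 were 12 genes, all lower: Asf1b, Brca1, Chaf1b, Clspn, E2f1, Lig1, Mcm10, Mcm7, Neil3, Prim2, Rrm1 and Rrm2.

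The 3 h and 6 h lists of naive cells shared 4 genes, Brca1, Chaf1a, Clspn and E2f7, which are 4 of the 7 lower at 3 h and 4 of the 27 lower at 6 h. Across the 51 genes the 2 changes, which come from separate arrays, were loosely related (Pearson's r = 0.29, Spearman's rho = 0.18, across genes that share arrays and are no independent replicates). Testing the 6 h change minus the 3 h change, 2 genes were lower and 1 higher, against 1.05% and 0.682% of all genes. Asf1b differed by -1.46 ± 0.24 (adjusted p = 0.0118) and Neil3 by -2.02 ± 0.34 (adjusted p = 0.0116), each falling further at 6 h. Pcna differed by 0.87 ± 0.20 (adjusted p = 0.0474), from -0.28 at 3 h to 0.59 at 6 h. After another quantile normalization 2 genes passed, both lower, so Pcna did not. E2f2 (1.04 ± 0.34, adjusted p = 0.175), Ccne1 (0.98 ± 0.35, adjusted p = 0.217) and Ccne2 (0.81 ± 0.48, adjusted p = 0.555) lay the other way without passing. Among dendritic markers Clec9a differed by 3.53 ± 0.56, and its part was not tested. The count of 3 fell to 0 when replicate 2 at 3 h was left out, and to 1 when replicate 2 or replicate 4 at 0 h was. Time and array set change together in this difference, and the part of each was not tested.

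**Figure D3:**
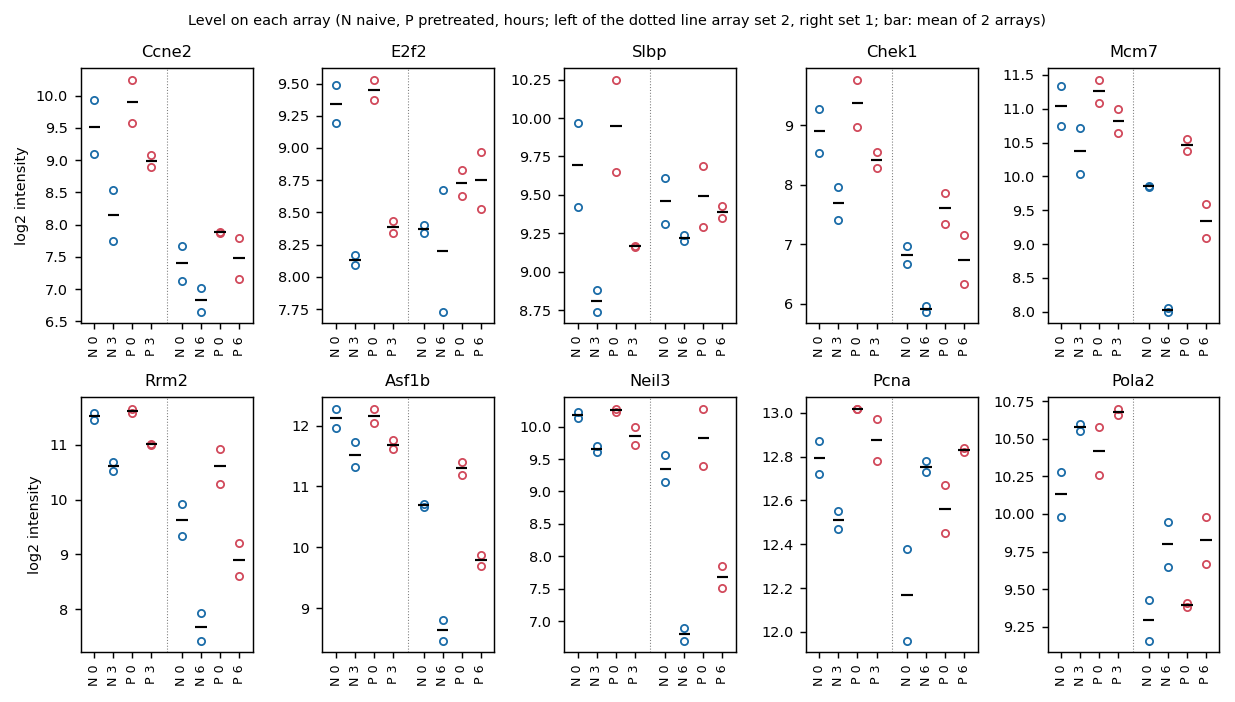
Each panel gives the log2 intensity of a gene on every array, in naive (N, blue) and pretreated (P, red) cells at 0, 3 and 6 h, with set 2 left and set 1 right of the dotted line and a bar at the mean of 2 arrays. Ccne2, E2f2 and Slbp are lower at 3 h, Mcm7, Rrm2, Asf1b and Neil3 drop most at 6 h, and Pcna and Pola2 are higher at 6 h in naive cells.

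In pretreated macrophages most replication genes also lay below 0, and fewer passed the test. At 3 h E2f2 alone fell, among 0.998% of all genes lower. It read 9.37 and 9.53 in pretreated 0 h cells of set 2 and 8.43 and 8.34 at 3 h, a change of -1.07 ± 0.24 (adjusted p = 0.0341), which did not pass with any 1 of these 4 arrays left out (highest adjusted p = 0.250). The median of the 51 genes was -0.51, with 50 below 0 and all genes at a median of 0.00. Without pretreated 0 h replicate 4 it was -0.31, with 48 below 0. Next in size were Chek1 at -0.96 ± 0.34, Exo1 at -0.93 ± 0.29, Ccne2 at -0.92 ± 0.34 and Orc1 at -0.88 ± 0.26, none past the test. With the replicate block 14 of the 51 genes passed as lower, where 1272 of all 19938 genes passed in either direction.

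At 6 h 10 of the 51 genes fell in pretreated cells, against 2.76% of all genes, and none rose. They were Asf1b, Brca1, Lig1, Mcm7, Mcm10, Neil3, Prim1, Prim2, Rrm1 and Rrm2, and all 10 were among the 27 that fell in naive cells. Neil3 read 9.39 and 10.27 in pretreated 0 h cells of set 1 and 7.51 and 7.85 at 6 h, a change of -2.15 ± 0.24 (adjusted p = 0.000214). Rrm2 read 10.28 and 10.93 at 0 h and 9.2 and 8.6 at 6 h, a change of -1.70 ± 0.26 (adjusted p = 0.00180). Asf1b read 11.19 and 11.41 at 0 h and 9.88 and 9.69 at 6 h, a change of -1.52 ± 0.17 (adjusted p = 0.000263). In all 3 the times lay apart. Prim2, the large primase subunit, fell by 1.13 ± 0.18 (adjusted p = 0.00233), the same size as in naive cells. Of the markers of other cell types, Cd34 fell here too (-1.03 ± 0.22), alone of the 12 on the progenitor list, and Clec9a rose (3.62 ± 0.39), alone of the 8 on the dendritic list. The summed level of the progenitor list was 11.32 to 11.78 (log2) in pretreated cells at 0 h, over both sets, and 11.48 to 11.77 at 6 h, and that of the dendritic list 9.6 to 10.16 and 11.35 to 11.65. These ranges, too, are not changes within a set. Of 11 measured macrophage markers 2 rose and 1 fell past the limma test, with changes from -1.06 to 0.75. The part of all these markers in the falls was not tested.

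The median at 6 h in pretreated cells was -0.55, against -0.03 for all genes, with 46 of 51 below 0. Cyclin E and E2F genes held no call: E2f7 was at -0.68 ± 0.19 (adjusted p = 0.0660), E2f1 at -0.25 ± 0.18, E2f2 at 0.02 ± 0.24 and Ccne1 at 0.34 ± 0.25. The count of 10 was 4 without pretreated 0 h replicate 2 or pretreated 6 h replicate 2, 7 without pretreated 6 h replicate 1 and 12 without pretreated 0 h replicate 1. Asf1b, Neil3, Prim2 and Rrm2 passed under all 4. In the 6 h change minus the 3 h change of pretreated cells no replication gene passed (0.0201% of all genes in either direction), where Neil3 was at -1.75 ± 0.34 (adjusted p = 0.0826) and Asf1b at -1.05 ± 0.24 (adjusted p = 0.161). Without pretreated 0 h replicate 1 that count was 1.

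Naive and pretreated cells were also compared directly at each time. At 0 h all 51 genes were higher in pretreated cells, by a median of 0.28 on the log2 scale, from Gins2 at 0.04 ± 0.16 to Chek1 at 0.62 ± 0.24. None passed the limma test, where 0.808% of all genes were higher and the median of all genes was 0.02. An unadjusted p under 0.05 was found for 10 of the 51, against 7.9% of all genes. With the replicate block 2 of the 51 passed, as did 684 of all 19938 genes. Within set 1 the median was 0.39 with 50 genes above 0, and within set 2 it was 0.18 with 49 above 0. Without naive 0 h replicate 3 the median was 0.14 and without pretreated 0 h replicate 4 it was 0.16, each with 47 of 51 genes above 0. Clec9a was also higher in pretreated cells at 0 h (1.67 ± 0.28), alone of the 8 dendritic markers, as was 1 of 11 measured macrophage markers. The part of either was not tested. At 3 h all 51 were again above 0 and none passed the limma test, with 4 at an unadjusted p under 0.05 (median 0.31, with 0.01% of all genes higher). The largest were Ccne2 at 0.85 ± 0.34, Ccne1 at 0.73 ± 0.25 and Chek1 at 0.72 ± 0.34, all with an adjusted p of 1.0. Without naive 3 h replicate 1 the median at 3 h was 0.10 with 38 of 51 above 0, and without replicate 2 it was 0.49. With the replicate block 1 of the 51 genes passed at 3 h, as did 76 of all 19938 genes.

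At 6 h Mcm7 and Asf1b were higher in pretreated than in naive cells, 2 of 51 genes, against 0.431% of all genes. Mcm7 read 9.59 and 9.09 in pretreated and 8.06 and 8.0 in naive cells at 6 h, a difference of 1.31 ± 0.25 (adjusted p = 0.0368). Asf1b differed by 1.14 ± 0.17 (adjusted p = 0.0153). In both the groups did not overlap, and Rrm2 at 1.22 ± 0.26 (adjusted p = 0.0566) and Cdt1 at 1.13 ± 0.30 (adjusted p = 0.111) came near. The median was 0.55 with 50 of 51 genes above 0, Rpa2 at -0.30 ± 0.25 being the exception, and 43 genes had both pretreated arrays above both naive arrays, as did 24.2% of all genes. The count of 2 fell to 0 when either pretreated 6 h array was left out, and for the naive arrays it was 1 when replicate 1 and 3 when replicate 2 was left out. With the replicate block the count was 16, all higher, where 845 of all 19938 genes passed in either direction.

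A smaller change in pretreated than in naive cells was tested as a difference of changes, and no replication gene passed the limma test at 3 h or at 6 h (0.0802% and 0.145% of all genes in either direction), with 0 and 2 at an unadjusted p under 0.05. With the replicate block 1 passed at 6 h, as did 302 of all 19938 genes. Set side by side, 48 of 51 genes had a smaller change in pretreated cells at 3 h and 46 at 6 h, on separate arrays. That share was not taken over all genes, whose changes were also narrower in pretreated cells. Their 5th to 95th percentiles at 3 h were -0.51 to 0.48 in naive and -0.47 to 0.38 in pretreated cells. At 6 h they were -0.85 to 0.76 and -0.52 to 0.46. Whether a smaller change was particular to replication genes was not tested. At 6 h the differences ran from -0.55 ± 0.35 (Rpa2) to 0.81 ± 0.42 (Cdt1), followed by Mcm7 at 0.71 ± 0.35 and E2f1 at 0.68 ± 0.26 (adjusted p = 0.403). Cdt1 fell by 1.12 in naive cells and was at -0.31 ± 0.30 in pretreated cells. The median difference was 0.14 at both times and moved with single arrays left out, which also unbalanced the array numbers. At 3 h it moved with each of the 8 arrays, from -0.10, with 12 genes above 0, when replicate 4 of the naive 0 h arrays was left out, to 0.40 when replicate 3 was. At 6 h it ran from -0.01 without replicate 1 of the pretreated 0 h arrays to 0.38 without replicate 2. It was 0.05 and 0.29 without replicates 1 and 2 of the naive 0 h arrays, and 0.03 and 0.30 without replicates 1 and 2 of the pretreated 6 h arrays.

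**Figure D4:**
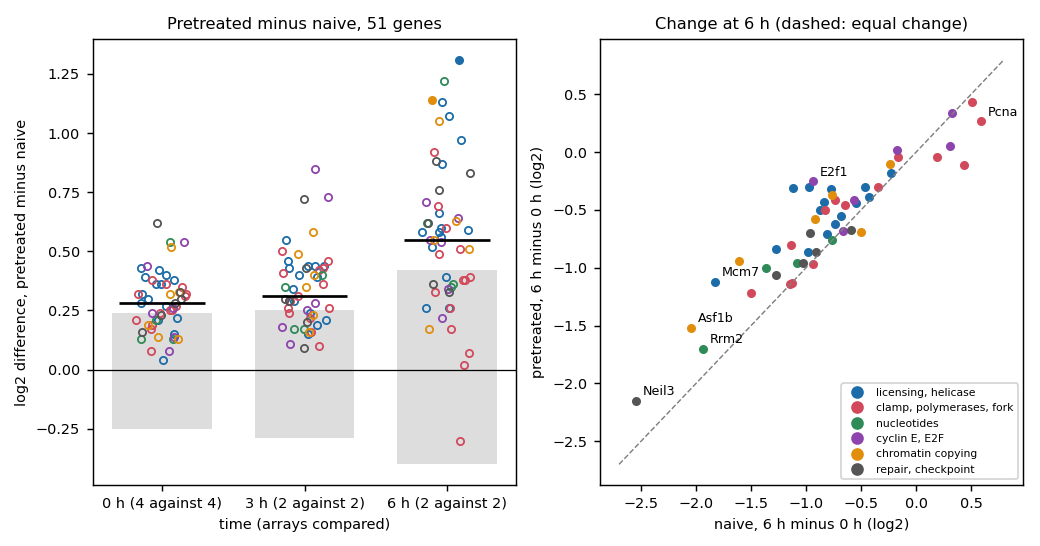
On the left, points give the log2 difference of pretreated minus naive cells for the 51 genes at 0, 3 and 6 h (bar, median; grey, 5th to 95th percentile of all genes; filled where the adjusted p is under 0.05), and on the right the change at 6 h in pretreated cells is set against that in naive cells, coloured by role. All points at 0 h and 3 h lie above 0, and at 6 h most genes lie above the dashed line of equal change, Neil3, Rrm2 and Asf1b at the far end.

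Mitosis genes, which act after S phase, are set beside the replication genes here. Of 23 measured mitosis genes, none passed the limma test in naive cells at 3 h, with a median of -0.39 where replication genes had -0.67. An unadjusted p under 0.05 was found for 8 of the 23, against 15.3% of all genes. At 6 h all 23 fell, with a median of -2.23 where replication genes had -0.81. The largest falls were in the kinesin Kif20a (-3.02 ± 0.20), the checkpoint kinase Bub1 (-2.82 ± 0.26) and Anln, of the cleavage furrow (-2.75 ± 0.25). In the difference between the 6 h and the 3 h change, 18 of 23 mitosis genes were lower, against 2 of 51 replication genes. In pretreated cells the medians of the mitosis genes were -0.30 at 3 h and -1.76 at 6 h, with 0 and 23 of 23 lower (0 at an unadjusted p under 0.05 at 3 h). Without naive 3 h replicate 2 the 18 became 7. Set against naive cells at the same time, pretreated cells had mitosis medians of 0.13 at 0 h and 0.05 at 3 h, where replication genes had 0.28 and 0.31. The first was -0.03 without pretreated 0 h replicate 2 and 0.31 without replicate 1, and the second ran from -0.04 to 0.13 with each array left out in turn. At 6 h the order was the other way, with a mitosis median of 0.87, all 23 above 0 and 6 past the test, where replication genes had 0.55 and 2 of 51. Those 6 became 1 without naive 6 h replicate 1 or pretreated 6 h replicate 2, and 16 with the replicate block. The difference of the 6 h changes, pretreated minus naive, had a median of 0.56 over mitosis genes, all above 0, and of 0.14 over replication genes. No mitosis gene passed the limma test of it (9 at an unadjusted p under 0.05), and its median was 0.22 without pretreated 0 h replicate 1, 0.91 without replicate 2 and 0.29 without pretreated 6 h replicate 2. The difference between the gene lists was not tested.

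**Figure D5:**
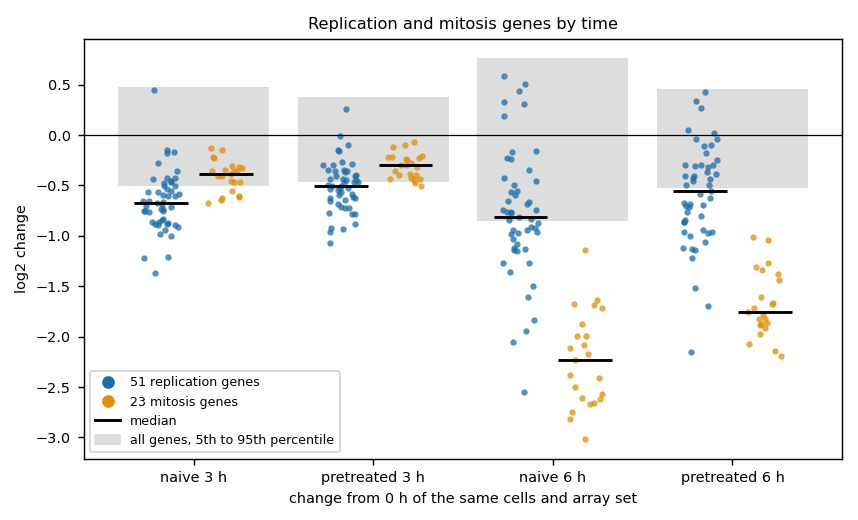
Points give the log2 change of the 51 replication genes (blue) and 23 mitosis genes (orange) from 0 h, in naive and pretreated cells at 3 h and 6 h, with medians as bars and the 5th to 95th percentile of all genes in grey. At 3 h the blue median lies lower, and at 6 h the orange points lie between -3.02 and -1.01, below most blue points.

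Other genes of the same processes moved in both directions. In naive cells 10.8% of all 19938 genes fell and 7.48% rose at 6 h, and 417 fell and 671 rose at 3 h. Of 16 other genes listed here under origin licensing and firing, 1 fell in naive cells at 3 h (Mcm8, -0.82 ± 0.17). At 6 h 5 of them fell and 2 rose. Dbf4, which activates the Cdc7 kinase at origins, fell by 1.75 ± 0.21 (adjusted p = 9.83e-05), and Ticrr, which helps Cdc45 to load, by 1.36 ± 0.26, while Orc4, of the origin recognition complex, rose by 0.76 ± 0.19. Of 17 other fork genes none passed the limma test at 3 h (9 at an unadjusted p under 0.05, against 15.3% of all genes), and at 6 h 4 fell and 2 rose. Dna2, a nuclease of Okazaki fragments, rose by 1.46 ± 0.23 (adjusted p = 0.000758) and Rnaseh2b, of the RNase that removes RNA from DNA, by 1.08 ± 0.21, while the polymerase epsilon subunit Pole2 fell by 1.14 ± 0.28. Of 9 other nucleotide genes, deoxycytidine kinase Dck rose (1.14 ± 0.20 at 3 h, 1.26 ± 0.20 at 6 h) and Umps, of pyrimidine synthesis, fell (-0.87 ± 0.22 and -1.44 ± 0.22), and no others passed at either time in naive cells.

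Among 27 measured G1/S control genes, 1 rose and 2 fell in naive cells at 3 h, and 5 rose and 7 fell at 6 h. The 6 h shares over all genes were 7.48% and 10.8%. At 3 h Max, the partner of Myc, rose by 0.98 ± 0.12 (adjusted p = 0.00029), and Cdk2, the kinase of cyclin E, and Skp2, which targets p27 for destruction, fell by 0.78 ± 0.13 and 0.73 ± 0.15. At 6 h the D-type cyclin Ccnd2 rose by 3.03 ± 0.56 (adjusted p = 0.00221) and Rbl1, the retinoblastoma relative p107 that represses E2F genes, by 2.06 ± 0.22 (adjusted p = 4.59e-05). Tfdp2, a DNA-binding partner of E2F, fell by 1.73 ± 0.22 (adjusted p = 0.000164). In pretreated cells at 6 h Rbl1 rose by 1.09 ± 0.22 and Tfdp2 fell by 0.92 ± 0.22. Of 21 other repair genes 9 fell and 2 rose in naive cells at 6 h, led by the Fanconi protein Fancd2 (-1.69 ± 0.22), the mismatch repair gene Msh6 (-1.46 ± 0.24) and the recombination helicase Rad54l (-1.33 ± 0.26), after 3 falls at 3 h. Of 9 other chromatin genes, Tonsl fell at 3 h (-0.99 ± 0.20), and Mms22l (-1.16 ± 0.22) and Tonsl (-1.13 ± 0.20), partners that bind new histone H4 at forks, fell at 6 h.

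Replication genes with and without E2F letters in the window had medians close to each other. The median change in naive cells was -0.72 for the 18 with E2F letters and -0.62 for the 26 without at 3 h, and -0.75 and -0.84 at 6 h. In the printed examples, Mcm5 and Gins3 fell at 6 h and hold E2F letters, as does Mcm6, which did not pass (-0.68 ± 0.34), and Asf1b fell with no E2F letters in its window. For the cell cycle homology letters the 6 h medians were -0.74 with and -0.91 without, over 11 and 33 genes. These are descriptions of small sets of genes, without a test.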

How the data were processed

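Total RNA, labelled with biotin, was measured on mouse gene arrays from Affymetrix with 1 colour. The deposited values are log2 intensities of 35557 features, taken as log2 from their range. No normalization, summarization or software is named in the labels, and column medians of 7.151 to 7.226 in set 1 and 6.886 to 6.997 in set 2 mean that levels are not set across the sets. Of the features, 21789 name 1 gene, 1621 several and 12147 none in the platform annotation, 21698 of the 21789 matched a current gene identifier, and for 999 genes the feature with the highest mean was used (Pcna, Tk1 and Slbp among the 51). No value was filtered out. limma 3.58.1 in R 4.3.3 fitted 8 means (group by set) over 16 arrays, with contrasts within a set, eBayes and Benjamini-Hochberg adjustment over 19938 genes at 0.05. The number of arrays limits the precision.

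The genes named were, in each comparison, up to 4 of each role with the largest changes, Mcm2 to Mcm7 and the cyclin E and E2F genes, up to 3 of each other list, and every gene of a count of 5 or fewer. Those outside it were chosen after their values were seen. The members and lists were chosen with earlier results of these data known.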

Additional observations from a re-analysis of the deposited data

Results flagged for a closer look

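Neil3 in pretreated 0 h cells had 1 array far from the other 3: replicate 1 read 9.39 against 10.22 to 10.28, a gap of 0.935 of the range of the 4 arrays. The 4 arrays belong to both sets, whose levels differed, so the 4 are not a single uniform sample and the gap is given as a value. The other array of the same set read 10.27. The change in naive cells differed between 6 h and 3 h for Pcna (0.87), Asf1b (-1.46) and Neil3 (-2.02) by the limma test of the difference, in which array set and time change together. Pcna did not pass that test after another quantile normalization.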

How the results depend on the processing

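Of the alternatives tried, none turned a called change around. In naive cells at 3 h the 7 calls became 13 with an additive set term, 3 after another quantile normalization and 15 with array weights, and 0 to 11 with 1 array left out. In naive cells at 6 h the 29 calls became 13 to 20 with 1 array left out. In pretreated cells at 3 h the 1 call became 3 with an additive set term or with arrays of set 2 alone, 0 after quantile normalization or with array weights, and 0 to 2 with 1 array left out. In pretreated cells at 6 h the 10 calls became 6 with array weights and 4 to 12 with 1 array left out. In pretreated minus naive cells at 6 h the 2 calls became 1 after quantile normalization, 8 with array weights and 0 to 3 with 1 array left out. In the naive 6 h minus 3 h difference the 3 calls became 6 with the additive term and 0 to 3 with 1 array left out, and in the pretreated one the 0 became 1 with the additive term and 0 to 1 with 1 array left out. Removing dim features, averaging features and a trended robust prior kept every count of calls within 1.5 times, and the cause of these moves was not tested. The 0 h comparison within each set was chosen after the data were examined. Arrays of 1 set alone could not be used where a comparison needs both sets. With the replicate block (array numbers 1 to 4 against 5 to 8 of a set), the counts were 31 in naive cells at 3 h (17 of them among the 33 licensing, fork and nucleotide genes, which held none without it) and 14 in pretreated cells, 40 and 24 at 6 h, 2, 1 and 16 for pretreated minus naive cells at 0, 3 and 6 h, 1 for the difference of changes at 6 h, and 8 and 2 for the naive and pretreated 6 h minus 3 h differences. Over all 19938 genes the block also raised the counts. They went from 1088 to 1925 in naive cells at 3 h and from 3653 to 4832 at 6 h. In pretreated cells they went from 569 to 1272 and from 1126 to 1895. In naive cells at 3 h they were 1410 with the additive term, 1119 after quantile normalization and 1578 with array weights. Deviations of arrays in the same block were positively correlated in all 12 pairs of groups, from 0.082 to 0.662, with 1 under 0.1. In set 2, numbers 5 to 8 read higher than 1 to 4 for 42 to 50 of 51 genes per group. In set 1 this was so for 6 to 38 of 51. The labels do not say what the numbers share, so the main fit has no block. Any shared shift therefore stays in its spread, and its counts were lower than each block count given here. Of 51 genes, Gins1, Orc1, Brca2, Chek1 and Clspn had a mean under 6.5 in some group, where signal over background limits what a fall can show.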
